A study of Homo sapiens with 24 samples.

Results

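The genes examined were 43 protein-coding genes of S phase and of G2/M, named by symbol and each found among the 60448 symbols of the deposited tables. Of these, 18 act in DNA replication and 25 in mitotic entry, spindle assembly and chromosome segregation. The rule that defines the list names symbols and uses no measured value. RNA was sequenced from the human prostate epithelial lines BPH-1, which carries SV40 oncogenes, and RWPE-1, which carries those of HPV18. BPH-1 gave 3 vector control libraries, 3 libraries of cells overexpressing wild-type C-Raf (C-Raf parental) and 6 libraries of lines grown from C-Raf metastases. RWPE-1 gave 1 vector control, 4 C-Raf parental and 7 metastasis-derived libraries. C-Raf was driven by the ubiquitin promoter of a lentiviral vector, and BPH-1 was grown in medium with serum and RWPE-1 in keratinocyte serum-free medium. The vector is titled ILYW and carries firefly luciferase, and the BPH-1 vector and C-Raf titles also name sGluc, a secreted luciferase. For the metastasis-derived lines, C-Raf cells were injected into the hearts of immune-deficient mice, and tumours were resected and cultured before sequencing. The labels place the RWPE-1 metastases in lymph node, spine and bone. The BPH-1 lines R075 have a title and a treatment label that disagree on the site, so all lines are called by their titles and the site was not used. Labels do not say which libraries of a group were separate cultures, so p-values measure only the spread between these libraries, which may be technical.

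Cells copy their DNA once per cycle, and the genes for this are switched on in waves. Replication genes are turned on by E2F factors when the retinoblastoma protein is inactivated, as the viral oncoproteins in these lines do. Mitotic genes follow later under B-MYB, FOXM1 and NF-Y, and are held down in resting cells by the DREAM complex, which binds a CHR element. Transcripts of these genes are therefore read as an index of how many cells are cycling. In bulk RNA, fewer cycling cells and less RNA per cycling cell cannot be told apart.

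Promoter windows are shown for 6 genes, 4 as examples of the replication and mitotic classes and 2 for their values, with the letters of the motifs in capitals. They come from RefSeq (GRCh38.p14) and cover 250 bases before to 50 bases after a transcription start, on the strand of the gene. Capitals mark TTTGAA or TTCGAA (the CHR words), CCAAT (the NF-Y word), and TTCCCGC or TTGGCGC (E2F words), searched on both strands, so that ATTGG and TTCAAA are the reverse complements of CCAAT and TTTGAA. CCNB1 encodes cyclin B1, the partner of CDK1 at mitotic entry, and its window is chr5:69166900-69167199 on the plus strand.
CCNB1: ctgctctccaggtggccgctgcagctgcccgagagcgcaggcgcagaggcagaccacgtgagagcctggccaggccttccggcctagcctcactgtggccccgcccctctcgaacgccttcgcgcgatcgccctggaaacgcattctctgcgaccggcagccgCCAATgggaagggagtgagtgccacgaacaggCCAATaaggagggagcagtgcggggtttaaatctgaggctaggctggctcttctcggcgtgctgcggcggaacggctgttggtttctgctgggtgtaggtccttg
CDK1, the mitotic cyclin-dependent kinase, has windows at chr10:60778081-60778380 and chr10:60778228-60778527 on the plus strand.
CDK1 upstream start: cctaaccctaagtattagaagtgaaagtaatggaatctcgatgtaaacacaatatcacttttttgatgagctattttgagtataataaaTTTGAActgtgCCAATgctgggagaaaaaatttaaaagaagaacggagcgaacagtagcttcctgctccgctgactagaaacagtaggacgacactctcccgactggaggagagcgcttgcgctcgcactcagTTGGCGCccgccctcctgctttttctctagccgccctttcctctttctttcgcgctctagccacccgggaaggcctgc
CDK1 downstream start: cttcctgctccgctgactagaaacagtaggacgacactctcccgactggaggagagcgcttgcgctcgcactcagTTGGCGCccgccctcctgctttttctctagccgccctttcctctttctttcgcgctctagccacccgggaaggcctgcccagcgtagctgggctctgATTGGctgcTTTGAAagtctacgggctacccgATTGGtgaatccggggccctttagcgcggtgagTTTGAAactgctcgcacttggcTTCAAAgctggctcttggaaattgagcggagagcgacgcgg
CDC20 activates the anaphase-promoting complex and CENPF is a kinetochore protein, and both were added after their values were seen, as the called genes with the largest fall and the largest rise in the BPH-1 metastasis-derived lines. Their windows are chr1:43358731-43359030 and chr1:214602945-214603244, on the plus strand.
CDC20: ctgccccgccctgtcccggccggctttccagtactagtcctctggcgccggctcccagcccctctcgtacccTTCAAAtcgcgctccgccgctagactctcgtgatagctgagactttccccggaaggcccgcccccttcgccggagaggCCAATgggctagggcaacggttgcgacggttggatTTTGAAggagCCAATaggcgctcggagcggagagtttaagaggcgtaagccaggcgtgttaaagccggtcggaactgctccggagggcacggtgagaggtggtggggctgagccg
CENPF: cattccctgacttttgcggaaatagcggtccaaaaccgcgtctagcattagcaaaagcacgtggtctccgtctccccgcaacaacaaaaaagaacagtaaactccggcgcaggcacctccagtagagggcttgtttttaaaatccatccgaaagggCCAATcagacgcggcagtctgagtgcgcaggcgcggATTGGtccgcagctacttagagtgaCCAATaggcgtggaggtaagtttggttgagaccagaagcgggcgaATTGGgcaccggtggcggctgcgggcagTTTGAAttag
MCM2, a subunit of the replicative helicase (chr3:127598161-127598460, plus strand), and E2F1, an activator of S-phase genes (chr20:33686336-33686635, minus strand), stand for the replication genes.
MCM2: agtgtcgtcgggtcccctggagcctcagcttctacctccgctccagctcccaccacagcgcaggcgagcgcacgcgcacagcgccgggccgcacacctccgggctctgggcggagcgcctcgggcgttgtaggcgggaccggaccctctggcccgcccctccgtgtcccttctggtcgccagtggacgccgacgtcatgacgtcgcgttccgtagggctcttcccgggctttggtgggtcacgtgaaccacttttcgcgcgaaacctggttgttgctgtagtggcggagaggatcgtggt
E2F1: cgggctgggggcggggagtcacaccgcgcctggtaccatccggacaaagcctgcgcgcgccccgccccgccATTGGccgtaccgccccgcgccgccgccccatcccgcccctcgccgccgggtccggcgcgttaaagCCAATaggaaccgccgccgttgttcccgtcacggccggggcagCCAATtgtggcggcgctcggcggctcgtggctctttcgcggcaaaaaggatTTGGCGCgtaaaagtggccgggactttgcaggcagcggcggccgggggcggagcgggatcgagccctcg

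The CCAAT word was common in both classes and the CHR words in the G2/M class. RefSeq windows matched 35 of the 43 genes, with 48 windows. A CHR word lay in 17 of 25 windows of G2/M genes (68.0%) and in 2 of 23 windows of S-phase genes (8.70%), against 16.4% of all 35116 windows. CCAAT lay in 84.0% of G2/M windows, 73.9% of S-phase windows and 34.6% of all windows. An E2F word lay in 6 of 25 G2/M windows, 13 of 23 S-phase windows and 9.23% of all windows. The CDC20 window holds TTTGAA at -65 and CCAAT at -55, counted from the transcription start. CENPF holds CCAAT on either strand 4 times, at -94, -58, -33 and 12, and TTTGAA at 40. No searched word lies in the MCM2 window, but other forms of these sites were not searched. These shares describe letters in windows, not binding. The CDC20 and CENPF windows both hold CHR and CCAAT words, and a link between these words and the changes of the genes was not tested.

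Of the 24 libraries, 21 held 20573290 to 42010010 counts in protein-coding genes. In BPH-1, the libraries R071, R074 and bone R075 (by title) held 464969, 132457 and 111167, and 93.3% to 97.5% of their counts lay in the noncoding gene RN7SL1. These 3 libraries are given separately as low-depth values and entered no main test. The 3 deeper BPH-1 metastasis-derived libraries also stood apart. Protein-coding genes held 70% of the counts of R069, 38.9% of R072 and 83.8% of thymus R075, against 97.2% to 98.2% in all other deep libraries, and mitochondrial genes made up 16.2%, 39.5% and 11.9% of their coding counts, against 0.490% to 3.45%. All BPH-1 metastasis-derived libraries are in a table of their own, so for this line an effect of the table and one of the stage cannot be told apart. The 12 epithelial markers summed to 7552 to 7758 CPM in the BPH-1 C-Raf parental libraries and to 15282 to 30554 CPM in the deep BPH-1 metastasis-derived libraries, and in RWPE-1 to 17554 CPM with vector, 7718 to 13258 CPM with C-Raf and 6039 to 12076 CPM in metastasis-derived lines. Levels are protein-coding counts scaled to library size (CPM), TMM-scaled in the 21 deep libraries.

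All 43 genes were present in all 21 deep libraries. MKI67, the proliferation antigen Ki-67 (chr10:128096659-128126385, GENCODE, GRCh38, minus strand), was at 628, 675 and 650 CPM in the BPH-1 vector libraries and at 600, 591 and 571 CPM in the BPH-1 C-Raf parental libraries. TOP2A, the topoisomerase that untangles sister DNA (chr17:40388516-40417950, minus strand), was at 506, 524 and 504 CPM with vector and 469, 477 and 482 CPM with C-Raf. MCM2 (chr3:127598223-127622436, plus strand) was at 437, 427 and 434 CPM with vector and 424, 408 and 416 CPM with C-Raf. The groups of MKI67, TOP2A and MCM2 did not overlap in any case, with C-Raf the lower, and the log2 fold changes were -0.14 for MKI67, -0.10 for TOP2A and -0.05 for MCM2, which did not pass the test. Of 12186 genes, 31.5% were lower and 32.9% higher in every C-Raf than in every vector library, so such a lack of overlap is common here.

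In RWPE-1 the C-Raf parental libraries spread more widely. MKI67 was at 1293 CPM in the vector library, at 1205, 1232, 944 and 702 CPM in C-Raf parental libraries 1 to 4, and from 701 to 1214 CPM (median 1013) in the 7 metastasis-derived libraries. TOP2A was at 762 CPM with vector, 685, 644, 520 and 483 CPM with C-Raf and 570 to 651 CPM (median 609) in the metastasis-derived lines. MCM2 was at 349 CPM with vector, 258, 257, 178 and 175 CPM with C-Raf and 195 to 222 CPM (median 211) in the metastasis-derived lines. The RWPE-1 vector library was the highest of the C-Raf and vector libraries for each of these genes, and C-Raf libraries 3 and 4 were the lowest.

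Over all genes of a class, the geometric mean of the 18 S-phase genes was 146 ± 2.09 CPM (SD, n = 3) in BPH-1 vector, 138 ± 0.917 CPM (n = 3) in BPH-1 C-Raf parental and 98.9 ± 4.27 CPM (n = 3) in the deep BPH-1 metastasis-derived libraries. In RWPE-1 it was 151 CPM with vector, 107 ± 20 CPM (n = 4) with C-Raf and 104 ± 7.01 CPM (n = 7) in metastasis-derived lines. The geometric mean of the 25 G2/M genes followed the same order in BPH-1, at 127 ± 1.78, 123 ± 1.66 and 91.1 ± 9.13 CPM. It was 192 CPM with vector in RWPE-1, 148 ± 32.9 CPM with C-Raf and 154 ± 16.9 CPM in metastasis-derived lines. The 25 G2/M genes were also summed without TMM scaling, and highly expressed genes such as MKI67 weigh most in this sum. It was 4454 CPM in R069, 4464 CPM in R072 and 3169 CPM in thymus R075, against 4486 to 4593 CPM in BPH-1 C-Raf parental. On this unscaled level R069 and R072 were close to the parental sum. With TMM scaling MKI67 and CENPF alone were at 4084 and 683 CPM in R072, so for R072 this closeness depends on the scaling. These means and sums describe the libraries and were not tested.

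**Figure D1:**
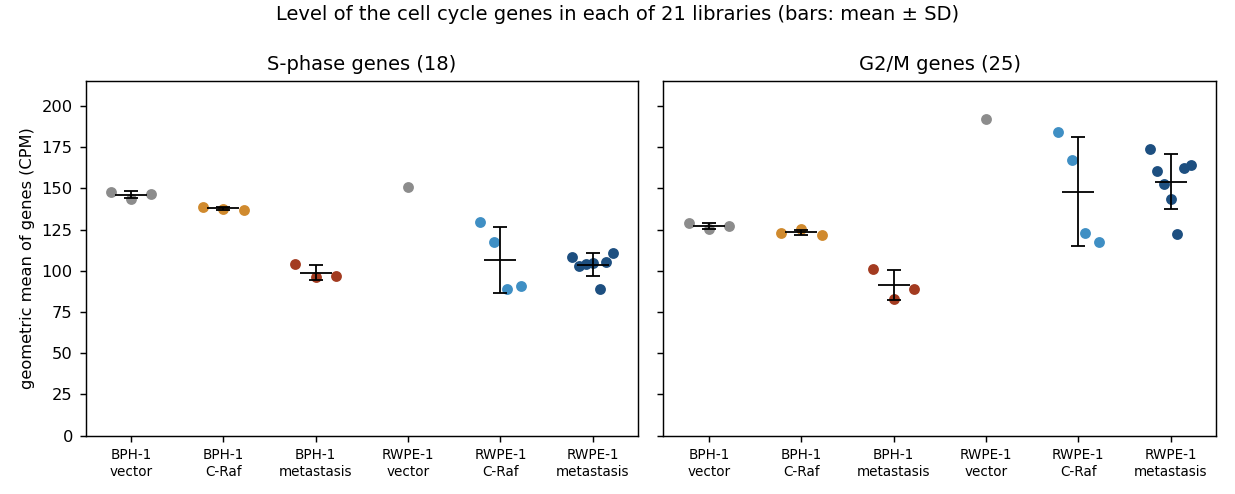
Geometric mean level of the 18 S-phase genes and the 25 G2/M genes, in CPM on a linear axis, in each of the 21 deep libraries (points), with the mean and SD of each group of 3 or more. The 3 deep BPH-1 metastasis-derived libraries sit below the 6 other BPH-1 libraries in both panels, and the single RWPE-1 vector library sits above all other RWPE-1 libraries.

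The first comparison asks what C-Raf overexpression alone did to the cycle genes of cultured BPH-1 cells. Changes were small: all 43 lay between -0.26 and 0.22 in log2 fold change, with a median of -0.06 against 0.00 over the 13231 genes tested. By edgeR's quasi-likelihood test (adjusted p below 0.05), 5 genes were higher, 19 were lower and 19 did not pass. Over all genes tested 59.8% were called, 30.4% as higher and 29.4% as lower, so the total share of cycle genes called, 24 of 43, was near that background. By direction, the 19 lower calls were above their background share and the 5 higher calls below theirs. The replicates of each BPH-1 group were very close, with a biological coefficient of variation of 2.43%, and changes of a few percent passed the test. Stromal fibroblast markers summed to 33.5 to 36.0 CPM with vector and 15.3 to 15.7 CPM with C-Raf. Haematopoietic markers summed to 19.7 to 21.8 CPM and 45.6 to 48.9 CPM, and epithelial markers to 7852 to 8016 CPM and 7552 to 7758 CPM. Their part in the levels of the cycle genes was not tested.

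Among replication genes, 2 of 18 were higher and 10 lower, where 30.4% and 29.4% of all genes tested were. E2F1 fell from 97.0, 99.5 and 101 CPM with vector to 83.4, 81.1 and 82.3 CPM with C-Raf, a log2 fold change of -0.26 ± 0.031 (SE; adjusted p = 3.46e-08). In the helicase class, GINS2, a subunit of the GINS complex that joins the helicase at origins, fell by 0.21 on the log2 scale, from 76.2 to 76.9 CPM down to 65.6 to 66.4 CPM. MCM3, MCM5 and MCM6 also fell, MCM7 rose by 0.07, and CDC6, CDT1, MCM2, MCM4 and CDC45 did not pass. In the synthesis class, PCNA, FEN1, RRM1 and TYMS fell and RRM2, a subunit of ribonucleotide reductase, rose by 0.07. UHRF1, which maintains DNA methylation behind the fork, was at 207, 204 and 198 CPM with vector and 191, 189 and 185 CPM with C-Raf, and fell by 0.11 (adjusted p = 0.00164), and E2F8, a repressor E2F, did not pass.

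Among mitotic genes, 3 of 25 were higher and 9 lower, where 30.4% and 29.4% of all genes tested were. CDC20 rose from 261 to 268 CPM with vector to 304 to 310 CPM with C-Raf, a log2 fold change of 0.22 ± 0.026 (adjusted p = 2.50e-08). BUB1, a spindle checkpoint kinase, rose from 89.5, 93.0 and 91.4 CPM to 98.6, 98.98 and 99.2 CPM (0.12, adjusted p = 0.00122), and UBE2C, the ubiquitin-conjugating enzyme of the anaphase-promoting complex, rose by 0.09. The groups did not overlap for any of these genes, as for 32.9% of all genes. NUSAP1, a spindle protein, fell from 136, 133 and 136 CPM to 112, 115 and 113 CPM (-0.24 ± 0.029, adjusted p = 4.85e-08). CCNB2 fell by 0.22, KIF20A by 0.15, MKI67 by 0.14 and TOP2A by 0.10. TPX2, a spindle assembly factor, fell by 0.11, from 618 to 640 CPM down to 581 to 587 CPM. CCNB1 was at 155 to 163 CPM with vector and 160 to 161 CPM with C-Raf, and AURKA at 171 to 180 and 169 to 176 CPM, and neither passed.

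The RWPE-1 vector control is a lone library, so C-Raf was not tested against it. Its value lay above all 4 C-Raf parental libraries for 32 of the 43 genes and below all 4 for none. Among the 11910 genes with a mean of at least 1 CPM, 32.8% lay above all 4 and 28.0% below all 4. The mean of the C-Raf libraries was below the vector value for each of the 43 genes, with log2 ratios from -0.95 (E2F8) to -0.08 (TYMS) and a median of -0.41, against -0.02 over all genes. GINS2 was at 53.3 CPM with vector and 29.01 ± 9.48 CPM (SD, n = 4) with C-Raf, and MCM2 at 349 and 217 ± 46.9 CPM. E2F8 was at 27.5 CPM with vector and at 18.1, 16.8, 11.01 and 10.7 CPM with C-Raf. C-Raf parental library 1, the only one in the same table as the vector library, was closer to it, with a median log2 ratio of -0.13 and 33 of 43 genes below, against a median of -0.0065 and 6136 of 11910 over all genes. It was the highest C-Raf library for 37 genes, and library 4 was the lowest for 27 and library 3 for the other 16.

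Other values also differed between the vector library and the C-Raf libraries. CDKN1A, the CDK inhibitor p21, was at 48.9 CPM in the RWPE-1 vector library and at 68.97, 153, 349 and 307 CPM in C-Raf parental libraries 1 to 4. The summed level of 12 stromal fibroblast markers, among them VIM, was 302 CPM with vector, with 7 of the 12 at a count of 0, and 901 to 1222 CPM with C-Raf. Haematopoietic markers summed to 37.0 CPM with vector and 59.9 to 143 CPM with C-Raf, and epithelial markers were lower with C-Raf, as given above. The part of any of these in the levels of the cycle genes was not tested.

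The second comparison asks how lines grown from metastases differ from the C-Raf cells they came from. In BPH-1, estimates were negative for 35 of the 43 genes in the 3 deep metastasis-derived libraries and positive for 8, and 29 genes did not pass the test. Of the 43 genes, 2 were called higher and 12 lower, against 37.7% of the 13453 genes tested (21% higher and 16.8% lower), so 14 of 43 is below that background and the lower calls alone are above it. The median log2 fold change was -0.44, against 0.08 over all genes tested. With an offset for transcript length this median was -0.28, against 0.09. Without regard to the test, 26 genes were lower and 5 higher in every metastasis-derived library than in every C-Raf library, where 32.7% and 27.4% of 12663 genes were so. The coefficient of variation in this fit was 35.3%, against 2.43% in the fit of BPH-1 vector and C-Raf parental libraries. Within groups, the median for the cycle genes was 2.10% (S phase) and 1.93% (G2/M) among C-Raf parental libraries. Among the deep metastasis-derived libraries it was 24.6% and 36.6%. The test fits a spread shared by both groups, so the very close C-Raf parental libraries also enter its p-values.

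Of the 25 mitotic genes, 8 fell, against 16.8% of all genes tested. Both genes of the class of anaphase-promoting complex partners were among the 8. CDC20 was at 306, 310 and 304 CPM in the C-Raf parental libraries and at 96.0, 38.1 and 101 CPM in R069, R072 and thymus R075, a log2 fold change of -1.92 ± 0.366 (adjusted p = 0.00968). UBE2C, its partner in the anaphase-promoting complex, was at 146 to 157 CPM and then at 69.8, 61.8 and 87.6 CPM (-0.98, adjusted p = 0.00824). In the class of spindle proteins and motors 2 of 6 fell. KIF20A, a kinesin of the central spindle, was at 102, 105 and 102 CPM and then at 36.0, 37.3 and 40.0 CPM (-1.39 ± 0.142, adjusted p = 0.00207). These metastasis-derived values were close together for KIF20A, and R072 was the lowest for CDC20 and UBE2C. HMMR, a spindle pole protein, was at 92.9 to 94.97 CPM and then at 21.8, 50.4 and 35.8 CPM (-1.32, adjusted p = 0.0210).

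Of the mitotic kinases 3 of 6 fell, and of the mitotic cyclins and CDK1 1 of 5, against 16.8% of all genes tested. AURKA, the spindle pole kinase, was at 172, 176 and 169 CPM in the C-Raf parental libraries and at 79.4, 45.7 and 71.4 CPM in the metastasis-derived libraries (-1.34 ± 0.225, adjusted p = 0.00682). PLK1, a kinase of mitotic entry, was at 194 to 200 CPM and then at 107, 112 and 86.1 CPM (-0.89, adjusted p = 0.0122), and BUB1 at 98.6 to 99.2 CPM and then at 59.5, 27.4 and 54.6 CPM (-1.02, adjusted p = 0.0324). CCNB1 was at 160 to 161 CPM and then at 84.0, 52.1 and 94.4 CPM (-1.01, adjusted p = 0.0172). The groups did not overlap for any of these genes, where 32.7% of 12663 genes were lower in every metastasis-derived library. The related kinases behaved otherwise: AURKB, BUB1B and TTK did not pass, with log2 fold changes of -0.01, 0.80 and 0.12. AURKB was at 53.7, 137 and 48.0 CPM in R069, R072 and thymus R075, so its value depends on R072, and with an offset for transcript length it was 0.53 and did not pass.

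Among replication genes 4 fell: CDT1, a licensing factor (-0.97, adjusted p = 0.0100), MCM4 (-0.63), FEN1, the flap endonuclease of lagging-strand synthesis (-0.51), and TYMS, which makes thymidylate (-0.64). Of all genes tested 16.8% were called lower, so 4 of 18 is near that share. FEN1 and TYMS did not pass with an offset for transcript length. All 10 licensing and helicase genes had negative estimates, and 8 of them did not pass. MCM2 was at 408 to 424 CPM in the C-Raf parental libraries and at 214.5, 358 and 184 CPM in the metastasis-derived libraries (-0.65 ± 0.303, adjusted p = 0.134). MCM7 was at 419 to 438 CPM and then at 221, 346 and 228 CPM (adjusted p = 0.0941), and RRM1 at 228 to 236 CPM and then at 178, 105 and 174 CPM (adjusted p = 0.100). On this TMM-scaled level MCM2 and MCM7 were highest in R072 and RRM1 was lowest there. Without TMM scaling the 18 S-phase genes summed to 2261 CPM in R069, 1320 CPM in R072 and 1984 CPM in thymus R075. Their TMM-scaled geometric mean was 104, 96.0 and 97.0 CPM, so R072 was the lowest of these libraries in both summaries. In R069, R072 and thymus R075, UHRF1 was at 131, 187 and 117 CPM and TPX2 at 502, 602 and 406 CPM, and neither passed (-0.31 and -0.15). TOP2A was at 356, 419 and 368 CPM, below all C-Raf parental values, as 32.7% of all genes were. Its log2 fold change of -0.26 did not pass (adjusted p = 0.298). With an offset for transcript length TOP2A was at -0.48 and did not pass either (adjusted p = 0.0674).

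The genes called higher were E2F8 and CENPF. E2F8 (chr11:19224063-19241620, minus strand) was at 25.7, 26.3 and 29.3 CPM in the C-Raf parental libraries and at 33.2, 54.8 and 44.5 CPM in R069, R072 and thymus R075 (0.77 ± 0.231, adjusted p = 0.0412). CENPF (chr1:214603195-214664588, plus strand) was at 195, 187 and 179 CPM and then at 504, 683 and 285 CPM (1.46 ± 0.350, adjusted p = 0.0199). CENPE, the kinetochore kinesin, was at 100 to 103 CPM and then at 226, 405 and 117 CPM (1.38, adjusted p = 0.0543). MKI67 was at 571 to 600 CPM and then at 1158, 4084 and 693 CPM (1.84 ± 0.677, adjusted p = 0.0746). The metastasis-derived values of MKI67 and CENPE lay above all C-Raf parental values, as for 27.4% of all genes. They spread several-fold, with R072 highest and thymus R075 lowest. Thus 2 widely used marks of proliferation, MKI67 and TOP2A, had estimates of opposite sign in the same libraries.

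CENPF, CENPE and MKI67, of which only CENPF passed the test, have the longest transcripts of the 43. KIF23, a kinesin of the central spindle, was also higher in every deep metastasis-derived library (127 to 164 CPM against 116 to 126 CPM) and did not pass, and has 3.72 kb. Of 12663 genes, 27.4% were higher in every such library. By the longest protein-coding GENCODE transcript, MKI67 has 12.7 kb, CENPF 10.3 kb and CENPE 8.61 kb, while CDC20 has 1.78 kb and UBE2C 0.914 kb. Across the 43 genes the log2 fold change rose with transcript length (Spearman's rho = 0.48, genes of the same libraries and not independent), against -0.28 in the RWPE-1 metastasis comparison and -0.11 for C-Raf against vector in BPH-1. Over 13433 genes with a length, rho was 0.23 in this comparison. The median log2 fold change was -0.33 for 1462 genes under 1.5 kb and 0.83 for 1369 genes over 7.5 kb. When length was fitted as an offset, which was added after the pattern was seen, 10 of the 14 calls remained with the same sign: E2F8 as higher, and CDT1, MCM4, CCNB1, AURKA, BUB1, CDC20, UBE2C, KIF20A and HMMR as lower. CENPF was then at 0.72 (adjusted p = 0.0956), CENPE at 0.78 and MKI67 at 0.85. FEN1 (-0.27), TYMS (-0.28) and PLK1 (-0.63, adjusted p = 0.0504) no longer passed. The part in these values of the RN7SL1 and mitochondrial shares given above was not tested. Stromal fibroblast markers summed to 66.5 to 82.8 CPM in these libraries, with POSTN at 0, against 15.3 to 15.7 CPM in the C-Raf parental libraries, haematopoietic markers to 15.2 to 37.1 CPM against 45.6 to 48.9 CPM, and endothelial markers to 43.8 to 60.9 CPM against 110 to 112 CPM. The part of these cell types was not tested.

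**Figure D2:**
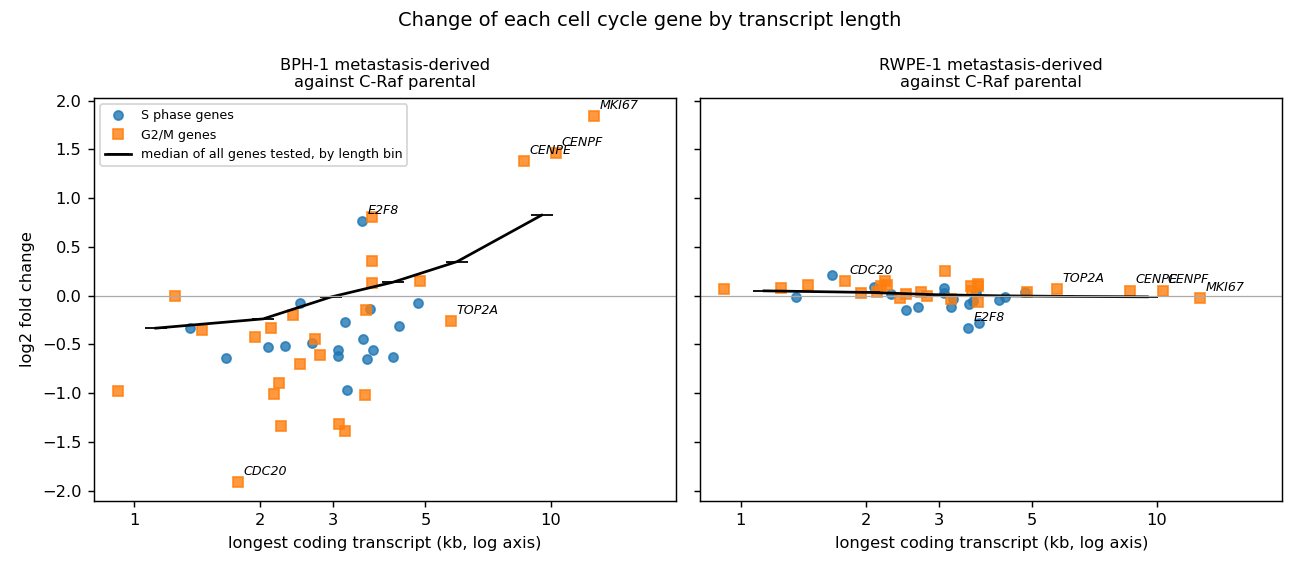
Log2 fold change of each of the 43 genes (circles S phase, squares G2/M) against the length of its longest coding transcript in kb on a log axis, for the metastasis comparison in BPH-1 (left) and RWPE-1 (right), with the median of all genes tested in 6 length bins as a black line. In BPH-1 the 3 genes over 7.5 kb, CENPE, CENPF and MKI67, are the highest and the median of all genes rises with length, whereas in RWPE-1 the points lie near 0 at every length.

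Calls in this comparison depended on single libraries. Without C-Raf parental library 1, 2 or 3 only 4, 3 and 4 of the 14 calls were left, with AURKA, CDC20 and KIF20A kept each time. Without R072, 27 genes were called, 3 higher and 24 lower, and MKI67 was among the higher (0.69, adjusted p = 0.0495). Without R069, 13 were called and CENPF was not among them. Without thymus R075, 18 were called, 5 of them higher, and E2F8 was not among them. With all 6 metastasis-derived libraries, 2 genes were called, AURKA and CDC20, both lower.

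**Figure D3:**
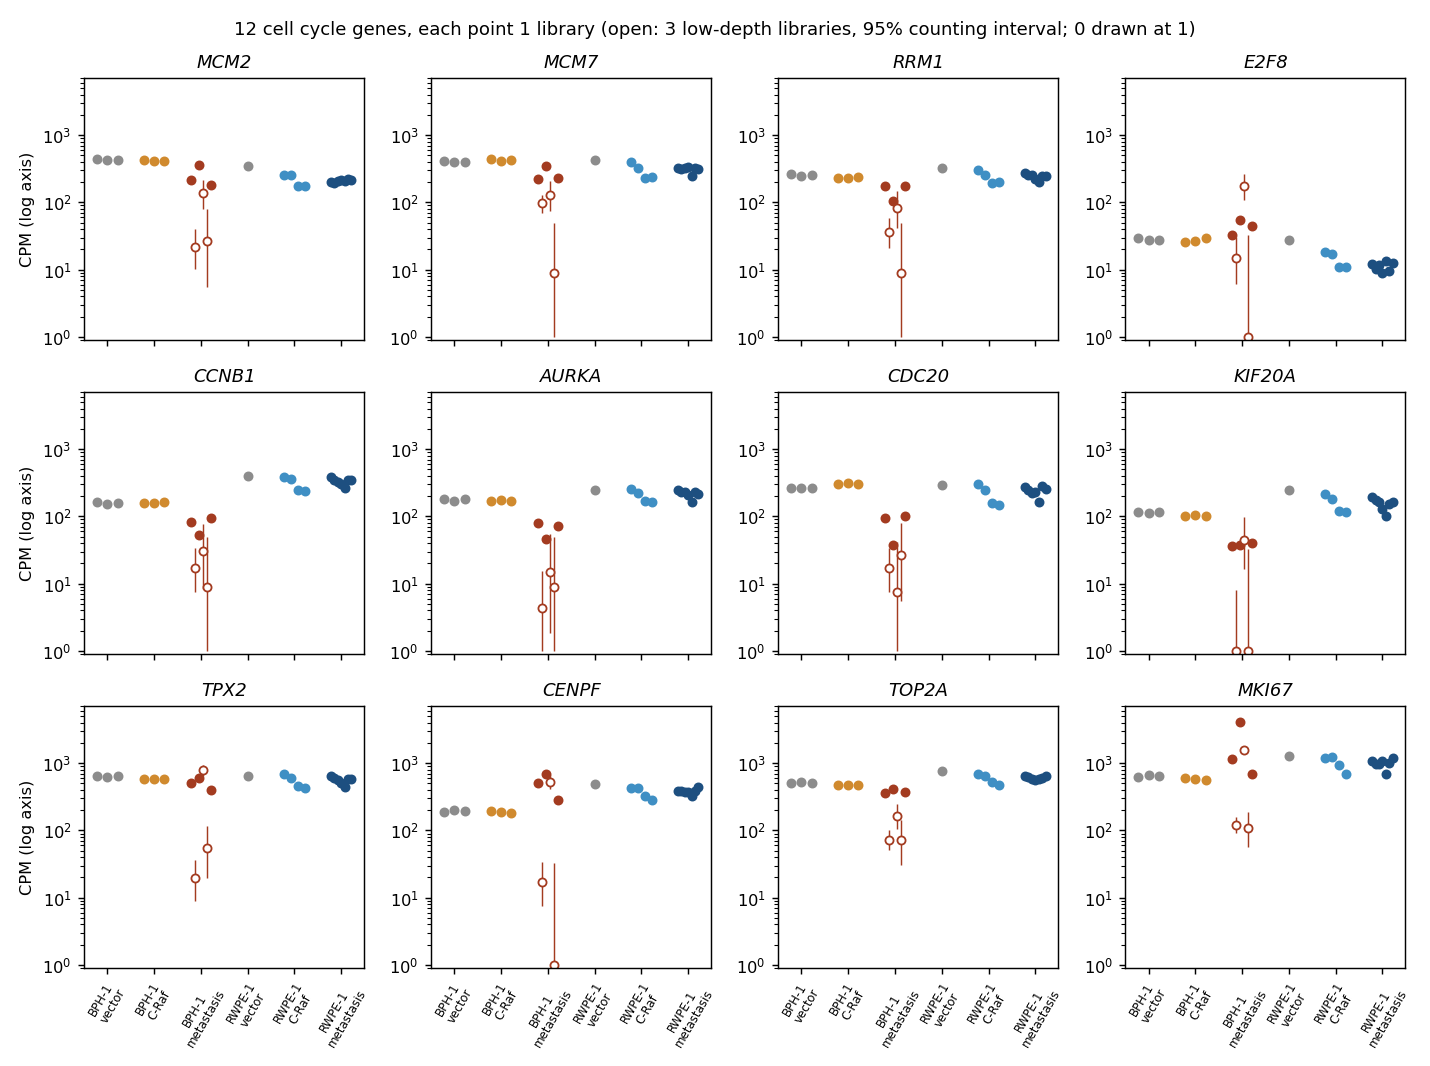
CPM (log axis) of 12 cell cycle genes in each library by cell line and stage; filled points are the 21 deep libraries and open points the 3 low-depth BPH-1 metastasis-derived libraries with 95% counting intervals, a count of 0 being drawn at 1. CDC20, AURKA, CCNB1 and KIF20A lie lower in every BPH-1 metastasis-derived library than in the C-Raf parental libraries, whereas MKI67 and CENPF lie higher in the 3 deep ones.

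The low-depth libraries differed among themselves. The counts of the 18 S-phase genes summed to 152 in R071, 170 in R074 and 29 in bone R075, or 327 CPM (95% exact Poisson interval 277 to 383), 1283 (1098 to 1492) and 261 (175 to 375), where the C-Raf parental libraries had 3341 to 3353 CPM before TMM scaling. The G2/M genes summed to 391 (337 to 453), 4198 (3856 to 4561) and 405 (295 to 542) CPM, against 4486 to 4593 CPM. Both sums were thus low in R071 and bone R075. In R074 the S-phase sum was low, and the G2/M sum rested largely on MKI67 (1593 CPM), TPX2 (785 CPM) and CENPF (528 CPM). MKI67 had 56, 211 and 12 counts in R071, R074 and bone R075, or 120, 1593 and 108 CPM. CDC20 had 8, 1 and 3 counts, or 17.2, 7.55 and 27.0 CPM, and the upper ends of the intervals, 33.9, 42.1 and 78.9 CPM, lay below every C-Raf parental value. The share of all genes that lay so low in these libraries was not computed, so low values cannot be called particular to the cycle genes. A count of 0 was found for 11, 2 and 17 of the 43 genes, where 3 counts would be 6.45, 22.6 and 27.0 CPM. Haematopoietic markers summed to 143 to 675 CPM in these 3 libraries, with 9 of the 14 at a count of 0 in all of them, against 45.6 to 48.9 CPM in C-Raf parental, and their part was not tested. The interval lay above every BPH-1 vector and C-Raf parental library for 4 of the 43 genes in R074 and for none in the others. In R074 this is near the share of all genes, 10.7% of 12186. Over the 3 libraries it is 4 of 129 values, below the 9.35% of all genes. Intervals cover counting error only, since reads carried no molecular identifiers.

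In RWPE-1 none of the 43 genes passed between metastasis-derived and C-Raf parental lines (7 against 4 libraries), and 2 had an unadjusted p below 0.05. The edgeR test called 13 of 13188 genes there (0.0986%, with 0.0758% higher and 0.0227% lower), and DESeq2 called none of the 43 either, with 169 genes in all. Estimates lay between -0.33 and 0.26 with a median of 0.03, against 0.01 over all genes, and 28 were positive. No gene was higher or lower in all metastasis-derived than in all C-Raf libraries, where 0.702% and 0.986% of all genes were. MCM6 was at 161 to 214 CPM in the C-Raf parental libraries and at 128 to 168 CPM in the metastasis-derived lines (-0.28 ± 0.098, adjusted p = 0.458), and TYMS at 93.5 to 104 CPM and 97.4 to 134 CPM (0.21, adjusted p = 0.545). CDC20 was at 304, 248, 157 and 150 CPM in C-Raf parental libraries 1 to 4 and at 164 to 279 CPM (median 245) in metastasis-derived lines, with a log2 fold change of 0.15 ± 0.198. E2F8 was at 8.90 to 13.6 CPM (median 11.6), a log2 fold change of -0.33 (adjusted p = 0.672).

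The spread within RWPE-1 groups was wide. The median coefficient of variation of the cycle genes was 20.1% for S phase and 21.5% for G2/M among the C-Raf parental libraries and 10.9% and 12.5% among the metastasis-derived lines. Bone4 was the lowest metastasis-derived library for 30 of 43 genes and LN1A, a lymph node line, the highest for 19. Within the table that holds C-Raf parental libraries 2 to 4 and Spine2, Bone4, Bone5 and Bone6, no gene was called either, and MKI67 and MCM2 had log2 fold changes of 0.05 and 0.08, against -0.02 and -0.05 over both tables. The other table has 1 C-Raf parental library and gave no test. Stromal fibroblast markers summed to 1175 to 2213 CPM in the metastasis-derived lines, and their part was not tested.

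**Figure D4:**
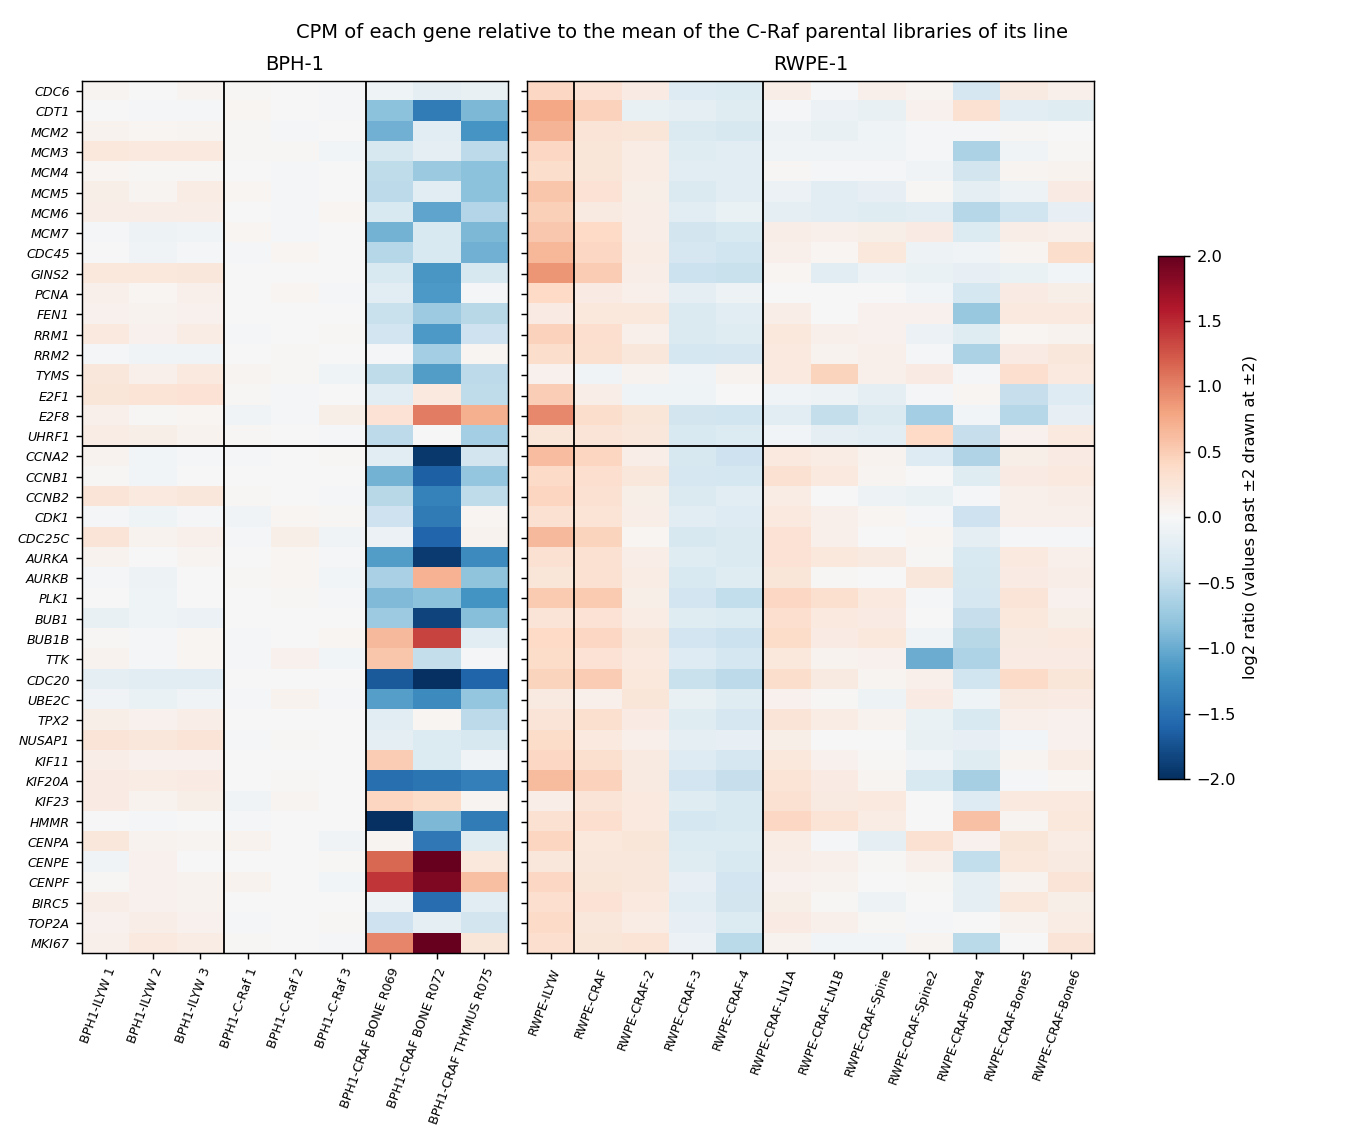
Log2 ratio of the CPM of each of the 43 genes (rows, S phase above the line and G2/M below it) to the mean of the C-Raf parental libraries of its line, in each of the 21 deep libraries (columns), with red higher and blue lower. BPH-1 vector and C-Raf libraries are nearly uniform, BPH-1 metastasis-derived libraries hold blue and red genes side by side, and in RWPE-1 the vector library is above all 4 C-Raf parental libraries for 32 of the 43 genes.

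The metastasis effect was tested for a difference between the cell lines. The interaction term, BPH-1 effect minus RWPE-1 effect, was called for 19 of the 43 genes, 4 positive and 15 negative, where 44.5% of 14268 genes were called (23.5% positive and 21.1% negative). CDC20 differed by -2.10 ± 0.400 on the log2 scale (adjusted p = 0.000581), HMMR by -1.63 ± 0.315, AURKA by -1.49 ± 0.255 and KIF20A by -1.39 ± 0.299. In each case the gene was lower in BPH-1 metastasis-derived lines and had an estimate between -0.04 and 0.26 in RWPE-1. MKI67 differed by 1.80 ± 0.550 (adjusted p = 0.0144), CENPF by 1.36 and CENPE by 1.26, and E2F8 by 1.05 ± 0.285 (adjusted p = 0.00729). Without R072, MKI67 was at 0.69 and CENPE at 0.72 and neither passed, while CENPF and E2F8 did. With the length offset only E2F8 remained among the positive calls and 14 were negative. Among these was TOP2A (-0.60, adjusted p = 0.0140), which the main fit did not call. With all 6 BPH-1 metastasis-derived libraries 7 calls were left, all negative.

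**Figure D5:**
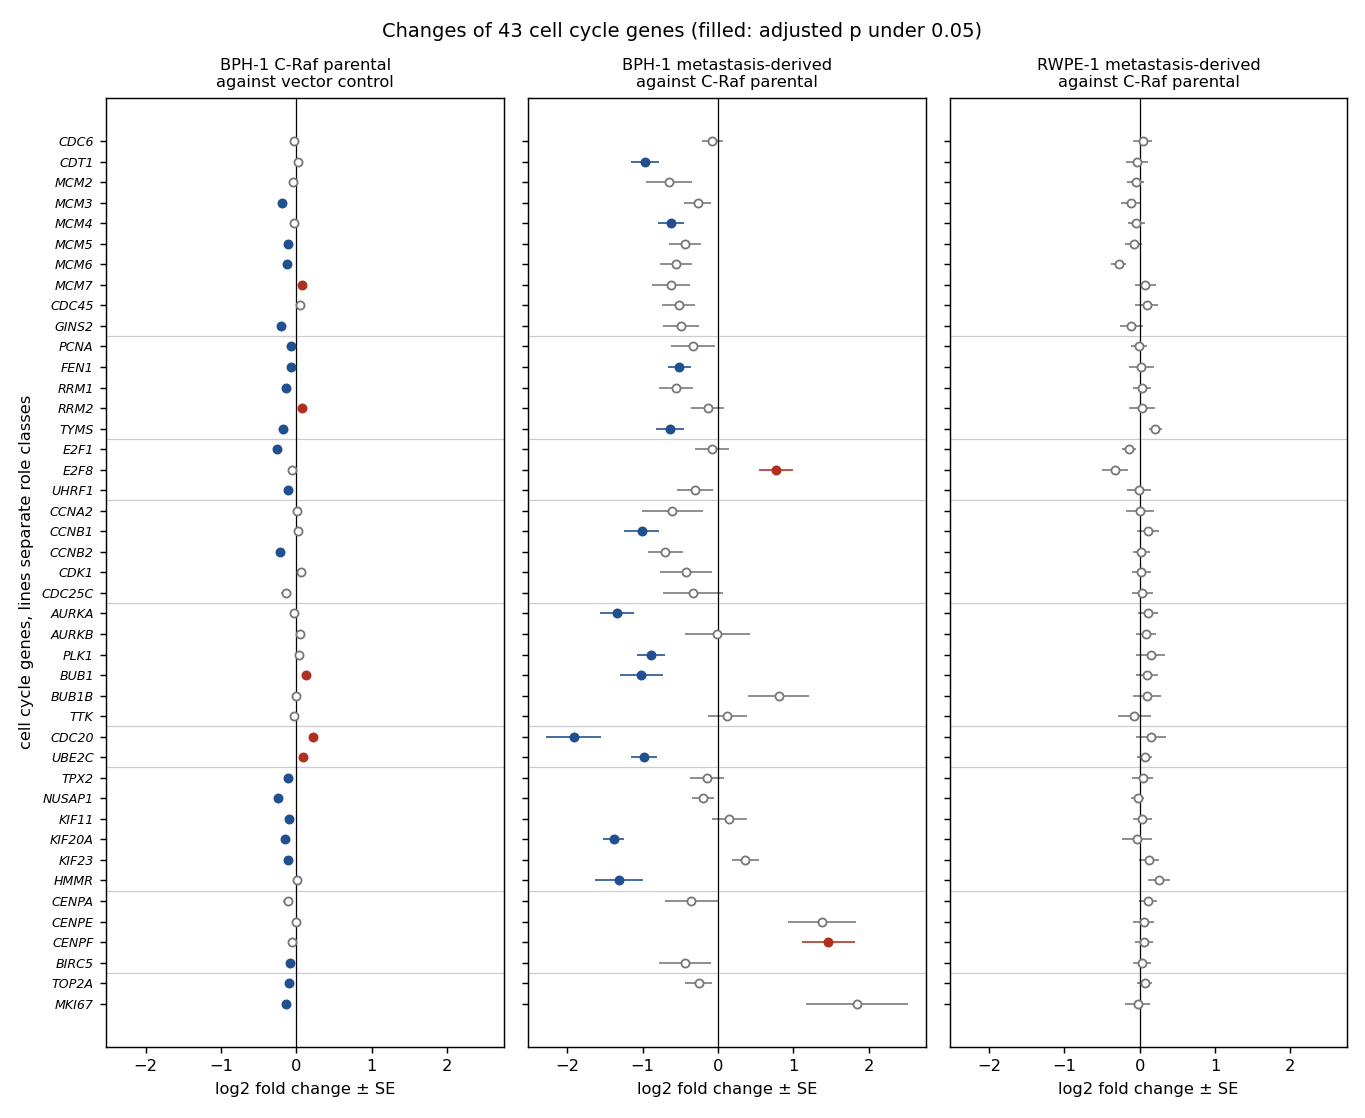
Log2 fold change and SE of each of the 43 genes, in role classes from licensing (top) to chromosome proteins (bottom), for C-Raf against vector in BPH-1, metastasis against C-Raf in BPH-1 and metastasis against C-Raf in RWPE-1; filled points passed an adjusted p of 0.05. The left panel holds 24 small filled points, the middle panel 2 positive and 12 negative ones, and the right panel none.

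Pooled over both cell lines, with a term for the line, no cycle gene was called between C-Raf parental and vector libraries, where 0.814% of 15233 genes were called (0.420% higher and 0.394% lower), 7 had an unadjusted p below 0.05, and DESeq2 called 1. Estimates were negative for 41 of the 43, with a median of -0.24 against -0.01 over all genes. Between metastasis-derived and C-Raf parental lines, 1 gene was called, MCM6, a helicase subunit, at -0.41 (adjusted p = 0.0426), where 2.50% of all genes were called (1.77% higher and 0.735% lower). MCM6 no longer passed when 1 library was left out in 13 of 21 cases: any BPH-1 vector or C-Raf parental library, thymus R075, RWPE-1 C-Raf parental 1 or 2, LN1B, Spine, Bone4 or Bone5. The pooled fits share their C-Raf libraries with the comparisons above, so they are no separate evidence.

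Related genes outside the list gave further values. FOXM1, the factor that drives mitotic genes, was at 145 to 148 CPM in BPH-1 vector, 120 to 126 CPM in C-Raf parental and 74.7, 64.3 and 69.6 CPM in the deep metastasis-derived libraries, with log2 fold changes of -0.24 (adjusted p = 2.61e-08) and -0.76 (adjusted p = 0.00943). CCND1, the G1 cyclin D1 and a known target of the MAPK pathway, rose by 0.16 with C-Raf and fell by 1.54 in the BPH-1 metastasis-derived lines, from 940 to 957 CPM down to 375, 229 and 339 CPM (adjusted p = 0.00499). CCNE2, cyclin E2, rose from 14.9 to 17.1 CPM to 41.1, 37.1 and 55.4 CPM (1.53, adjusted p = 0.00311), while TK1, thymidine kinase, fell by 1.47 from 156 to 162 CPM to 65.4, 33.3 and 67.3 CPM. MYBL2, which encodes B-MYB, fell by 0.34 with C-Raf in BPH-1 and did not pass in the metastasis-derived lines (-0.03). In RWPE-1 E2F7, a repressor E2F, was at 53.5 to 63.9 CPM with C-Raf and 70.8 to 115 CPM in metastasis-derived lines, with an adjusted p of 0.183, and it was called in the pooled metastasis fit (0.43, adjusted p = 0.0347). E2F7 also rose by 0.21 with C-Raf in BPH-1 (adjusted p = 9.51e-05). CDC25A, a phosphatase that activates CDKs, rose by 0.37 with C-Raf in BPH-1, from 50.6 to 52.6 CPM up to 65.2 to 68.9 CPM, and was at 50.5, 19.5 and 48.3 CPM in the metastasis-derived libraries (-0.71, adjusted p = 0.142).

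Lists of further cycle genes are read against the shares of all genes, which in the BPH-1 metastasis comparison were 21% higher and 16.8% lower. Of 58 further G2 and M genes, 4 were higher and 10 lower in the BPH-1 metastasis-derived lines, with a median log2 fold change of -0.21. Of 45 further replication genes, 2 were higher and 11 lower, with a median of -0.22. Of 16 transcription regulators of the cycle, 4 were higher and 5 lower, with a median of 0.16, and of 13 CDK inhibitors and G1 cyclins, 3 were higher and 5 lower, with a median of 0.09. In RWPE-1 metastasis-derived lines none of the genes of these 4 lists was called. For C-Raf against vector in BPH-1, where 30.4% of all genes were higher and 29.4% lower, 9 of the G2 and M genes were higher and 17 lower, and 14 of the replication genes higher and 9 lower.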

How the data were processed

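Expected counts per gene symbol, as deposited by the authors in 4 tables, cover 24 mRNA-seq libraries made from total RNA. The submitters' processing notes name cutadapt, FastQC, STAR, RSEM and hg38, and the versions are not given in the sources used here. Because RSEM shares reads among transcripts, values need not be whole, and they were rounded. Rows were limited to 19212 protein-coding symbols (GENCODE version 29 and, for 532, older RefSeq names), so that RN7SL1 does not enter library sizes.

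Tests were edgeR 4.0.16 quasi-likelihood fits in R 4.3.3 on all genes that passed filterByExpr, with TMM scaling and Benjamini-Hochberg adjustment (threshold 0.05). Each comparison was fitted on its own groups, and pooled fits had a term for cell line. All 43 genes passed the filter in every comparison. The 3 low-depth libraries were given as plain CPM with exact 95% Poisson intervals. Alternatives used DESeq2 1.42.0, ComBat-seq (sva 3.50.0), other filters, table terms, all libraries, a length offset and leaving out each library. Scripts were tested on simulated data.

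By rule, values were to be given for MKI67, TOP2A and MCM2, for the gene of highest mean CPM in each of 9 role classes, for the 2 largest called rises and falls per comparison, and for 8 related genes. Genes beyond this rule, including CENPE, GINS2, HMMR, UBE2C and PLK1, were picked after their values were seen. The members and lists were chosen with earlier results of these data known. A further gene is not reported here.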

Additional observations from a re-analysis of the deposited data

Results flagged for a closer look

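Among groups of 4 to 7 RWPE-1 libraries, 8 of 86 gene and group pairs had 1 library far from the rest by Dixon's test, which flags about 1 in 20 groups by chance. CDT1 was at 104 CPM in C-Raf parental library 1, above the other 3. The remaining 7 were all the low value of Bone4: MCM3 at 150, MCM4 at 256, MCM7 at 245, FEN1 at 69.6, RRM2 at 150, CDK1 at 113 and CENPE at 94.5 CPM.

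The metastasis effect differed between the cell lines, by the interaction term, for 19 of the 43 genes, which is at the share of all genes called (44.5%). In log2 units, BPH-1 minus RWPE-1, replication genes gave -0.97 for CDT1, -0.63 for MCM4, -0.75 for MCM7, -0.67 for CDC45, -0.62 for RRM1 and -0.89 for TYMS, with 1.05 for E2F8. Mitotic genes gave -1.16 for CCNB1, -0.76 for CCNB2, -1.49 for AURKA, -1.09 for PLK1, -1.15 for BUB1, -2.10 for CDC20, -1.09 for UBE2C, -1.39 for KIF20A and -1.63 for HMMR. CENPE gave 1.26, CENPF 1.36 and MKI67 1.80.

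Of 129 values in the low-depth libraries, which entered no main test, 4 had a counting interval above all BPH-1 vector and C-Raf parental values, all in R074. Over all genes the share was 9.35% in the 3 libraries and 10.7% in R074. They were E2F8 at 174, TPX2 at 785, CENPF at 528 and MKI67 at 1593 CPM.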

How the results depend on the processing

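In the BPH-1 metastasis comparison, the 2 higher calls became 4 with DESeq2, 1 with no filter on low counts, 1 with all genes of the tables, 1 with the length offset and 0 with all 6 libraries, which left 2 lower calls and 2102 genes. With the length offset, 38 of the 43 genes kept their sign, and AURKB turned to 0.53, E2F1 to 0.14, PCNA to 0.082, CENPA to 0.042 and NUSAP1 to 0.028, none of them called. In the RWPE-1 metastasis comparison, 13 genes became 169 with DESeq2, 5 with at least 10 counts in every library, 20 with all genes and 2 within 1 table, where MKI67 turned to 0.053 and MCM2 to 0.081. For pooled C-Raf against vector, 124 genes became 454 with DESeq2 (1 lower call among the 43), 68 with at least 10 counts and 37 with all 24 libraries. For the pooled metastasis fit, 381 genes became 942 with DESeq2, 17 with at least 10 counts and 1781 with all genes, and the MCM6 call was lost (0) with no filter, at least 10 counts, all 24 libraries or ComBat-seq. For the difference between lines, higher calls became 1 with the length offset and 0 with all 6 libraries, which left 7 lower calls and 4180 genes. The cause was not tested.

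Leaving out 1 library gave 3 to 5 higher and 15 to 21 lower calls for BPH-1 C-Raf against vector (7284 to 7639 genes), with CCNB1 from -0.0031 to 0.034. It gave 0 to 5 higher and 3 to 24 lower for the BPH-1 metastasis comparison (1959 to 8312 genes), with E2F1 from -0.32 to 0.081. In RWPE-1 it gave 0 calls and 4 to 40 genes, with MKI67 from -0.16 to 0.077, TOP2A from -0.012 to 0.15 and MCM2 from -0.14 to 0.043. The pooled fits gave 38 to 287 and 98 to 478 genes with 0 and 0 to 1 lower calls, and the difference between lines 2 to 5 higher and 12 to 18 lower calls (5508 to 7513 genes).

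With the replicate number as a block, BPH-1 C-Raf against vector had 4 higher and 17 lower calls and 7682 genes. Same-numbered libraries correlated at 0.0035, -0.098 and -0.050 over 12617 genes, so the numbers do not pair them. Depth limits the 3 low-depth libraries, where 1 count is worth several CPM.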
